A study of Mus musculus with 69 samples.

Results

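The constitutive proteasome subunit genes were chosen by symbol in the kidney count tables. Of 24523 symbols, 37 began with Psma, Psmb, Psmc or Psmd followed by a digit, with the immunoproteasome genes Psmb8, Psmb9 and Psmb10 set aside. The 36 of these with at least 100 counts in total over the 65 original libraries are described here, and Psmb11, a catalytic subunit of the thymus with 13 counts, was left out. They comprised 31 subunits, which are 7 of the alpha ring, 7 of the beta ring, 6 ATPases and 11 non-ATPases. The other members were Psma8, a testis paralogue of the alpha ring subunit Psma7, the regulatory particle assembly factors Psmd5, Psmd9 and Psmd10, and Psmc3ip, a meiotic recombination factor that shares only the symbol. The rule used symbols and total counts and no measured change, though it was set with earlier results of these data known. All 36 members could be tested in young and nephritic mice.

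The proteasome degrades proteins that carry ubiquitin chains. Its core particle is a barrel of outer alpha rings, which gate entry, and inner beta rings, which hold the caspase-like, trypsin-like and chymotrypsin-like sites, and a regulatory particle of ATPases and non-ATPase subunits binds ubiquitin, unfolds the substrate and feeds it into the core. Under interferon, Psmb9, Psmb10 and Psmb8 can replace the catalytic subunits Psmb6, Psmb7 and Psmb5 to form the immunoproteasome. Transcription of the constitutive genes is known to be raised by NRF1, the product of Nfe2l1, when proteasome activity is short.

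RNA sequencing was done on PBS-perfused whole kidneys of NZB/W F1 mice, a strain that develops lupus nephritis with age. The 30 young mice were 12 weeks old and were killed at 6 times of day, given as hours after lights on (ZT). The 27 nephritic mice were 30 to 45 weeks old and were killed 2 to 3 weeks after the onset of nephritis at the same times. The 8 remission mice, 36 to 50 weeks old, had received cyclophosphamide at 50 mg/kg with 6 doses of CTLA4Ig (200 ug) and anti-CD40L (250 ug) over 2 weeks at the onset of proteinuria, and were killed 8 weeks later at ZT0 or ZT12. Young and nephritic mice numbered 7 and 7 at ZT0, 4 and 4 at ZT4, 4 and 4 at ZT8, 7 and 6 at ZT12, 4 and 3 at ZT16, and 4 and 3 at ZT20. Age and disease cannot be told apart, and the remission mice also differed from the others by age, drugs and sequencing run. In bulk tissue, fewer cells of a type and less RNA per cell cannot be told apart.

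Total counts per library ranged from 13311278 to 48075977. The kidney markers were present in every group, with a summed level of 9 tubule and glomerulus genes of 12143 to 21068 CPM, the read count scaled to library size, in young mice and 4911 to 17175 CPM in nephritic mice. All 7 leukocyte markers were higher in nephritic mice, with a summed level of 14.2 to 32.0 CPM in young, 30.3 to 596 CPM in nephritic and 30.2 to 256 CPM in remission mice. Summed adrenal markers reached 1274 CPM in young and 784 CPM in nephritic mice, against medians of 6.47 and 5.55 CPM. The nephritic ZT4 mice RX12LU and RX11RL were closer to each other than other pairs of a group, at 1.93 times counting noise against a median of 11.5 times, and results were also computed with both summed. The remission mouse labelled ZT12 and named s9 had 27.3 CPM of the clock gene Arntl, where the 4 remission mice labelled ZT0 had 22.9 to 28.9 CPM and the other 3 labelled ZT12 had 3.24 to 4.93 CPM, and remission results were also computed without it.

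Every subunit gene was well expressed in the kidney. The 2 markers of the family, Psmd1, the scaffold of the regulatory particle, and Psma1, of the alpha ring, had counts in all 65 libraries, with young means of 114 ± 13.1 and 98.2 ± 7.87 CPM (SD, n = 30). Levels were compared between genes as CPM per kilobase of the median coding transcript. On that scale the median in young mice was 132 for the beta ring, 90.9 for the alpha ring, 77.5 for the ATPases and 54.6 for the non-ATPases, against 18.7 for the 3 assembly factors. Psmb6, the caspase-like subunit, was the most abundant subunit at 205 ± 28.7 CPM per kilobase and Psmd11, which clamps the regulatory particle to the core, the least at 30.7 ± 4.95 (SD, n = 30). Psma8 was near the limit of detection, with a mean of 0.209 ± 0.125 CPM over the 30 young mice (SD) and 0.252 ± 0.0992 CPM over the 27 nephritic mice (SD), and no difference in it passed a test.

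Promoter sequence could be read for 29 members, from the 250 bases upstream of each start site in RefSeq on GRCm38.p6. The 29 members had 31 windows, and a gene was counted if any of its windows held the motif. The ETS site CCGGAAG was found on either strand in 10 of the 29 members (34.5%), Psmc3ip among them. It was found in 7.83% of 27025 genes and in 12.8% of 13252 genes expressed in these kidneys. The antioxidant response element core TGACNNNGC, to which NRF1 and NRF2 bind, was in 5 members (Psmb5, Psmb6, Psmc6, Psmd12 and Psmd9; 17.2% against 11.5% and 13.7%). The E-box CACGTG, the element of the clock factors, was in 2 (Psma4 and Psmd9; 6.9% against 6.86% and 8.91%), and CCAAT was in 12 (41.4% against 37.5% and 39.1%). None of the 4 motifs overlaps another in the windows printed here. A match of letters is not a binding site. The Psmd9 window lies inside a longer gene model of Psmd9 in GENCODE. The windows of 4 genes on which the results below turn are given 5′ to 3′ on the gene's strand, without bases that an exon of the gene covers, and with matches in capitals: Psmd11, with the strongest day course (chr11:80428365-80428614, plus strand, ETS site in its reverse form), Psmd9, with the largest fall (chr5:123227940-123228189, plus strand, E-box and then antioxidant element core), and Psmc5 (chr11:106255935-106256153, plus strand) and Psmc4 (chr7:28050102-28050342, minus strand), whose day courses differed between groups and which hold none of the 4 motifs.
Psmd11: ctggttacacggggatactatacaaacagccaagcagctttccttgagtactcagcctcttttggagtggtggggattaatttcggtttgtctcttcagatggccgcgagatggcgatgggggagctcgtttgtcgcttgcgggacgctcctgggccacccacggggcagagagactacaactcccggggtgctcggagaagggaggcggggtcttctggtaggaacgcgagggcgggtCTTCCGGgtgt
Psmd9: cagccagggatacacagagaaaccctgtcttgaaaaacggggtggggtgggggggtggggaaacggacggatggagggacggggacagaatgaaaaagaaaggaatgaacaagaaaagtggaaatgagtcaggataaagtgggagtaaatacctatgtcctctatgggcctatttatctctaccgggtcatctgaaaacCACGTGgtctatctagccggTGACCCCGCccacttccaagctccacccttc
Psmc5: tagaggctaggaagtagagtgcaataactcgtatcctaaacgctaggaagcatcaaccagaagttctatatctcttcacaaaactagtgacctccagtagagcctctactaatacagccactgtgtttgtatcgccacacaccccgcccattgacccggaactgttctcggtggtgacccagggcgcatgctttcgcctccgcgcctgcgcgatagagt
Psmc4: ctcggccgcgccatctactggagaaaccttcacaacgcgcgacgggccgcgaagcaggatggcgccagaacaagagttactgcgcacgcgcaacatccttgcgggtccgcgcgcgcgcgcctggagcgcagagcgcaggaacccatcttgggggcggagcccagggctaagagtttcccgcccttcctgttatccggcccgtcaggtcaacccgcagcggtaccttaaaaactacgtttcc

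The first comparison asked how the level of these genes in nephritic kidney differed from young kidney over all times of day. Most constitutive genes changed little. Of the 36 members, 19 passed the test (52.8%, against 62.1% of 17521 genes), 18 of them lower and Psmc3ip higher, where 33.9% of all genes were lower and 28.1% higher. The median log2 change was -0.07 over the members and -0.03 over all genes, with a call for a smaller share of the members than of all genes. With ZT0 and ZT12 alone that order was kept, with 8 of 36 members called (53.5% of all genes). It turned with the mean of ribosomal protein genes as a covariate, where 30 of 36 were called, 29 of them lower (63.8% of all genes). The direction of this small common shift depended on the scaling: with quantile normalization 17 members passed, 13 higher and 4 lower, and the members' median was 0.05. The 4 genes lower in all 11 alternatives, quantile scaling included, were Psmd9, Psmd3, Psmb7 and Psmd5, which lie on GRCm38 at chr5:123169413-123250131, chr11:98682554-98695979, chr2:38588036-38644087 and chr2:34849734-34874968, and the plot of level changes shows them at the left under both scalings. Of the 9 tubule and glomerulus markers, 4 were called lower and 2 higher in nephritic mice. The part of these markers and of the higher leukocyte markers in the level changes was not tested.

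**Figure D1:**
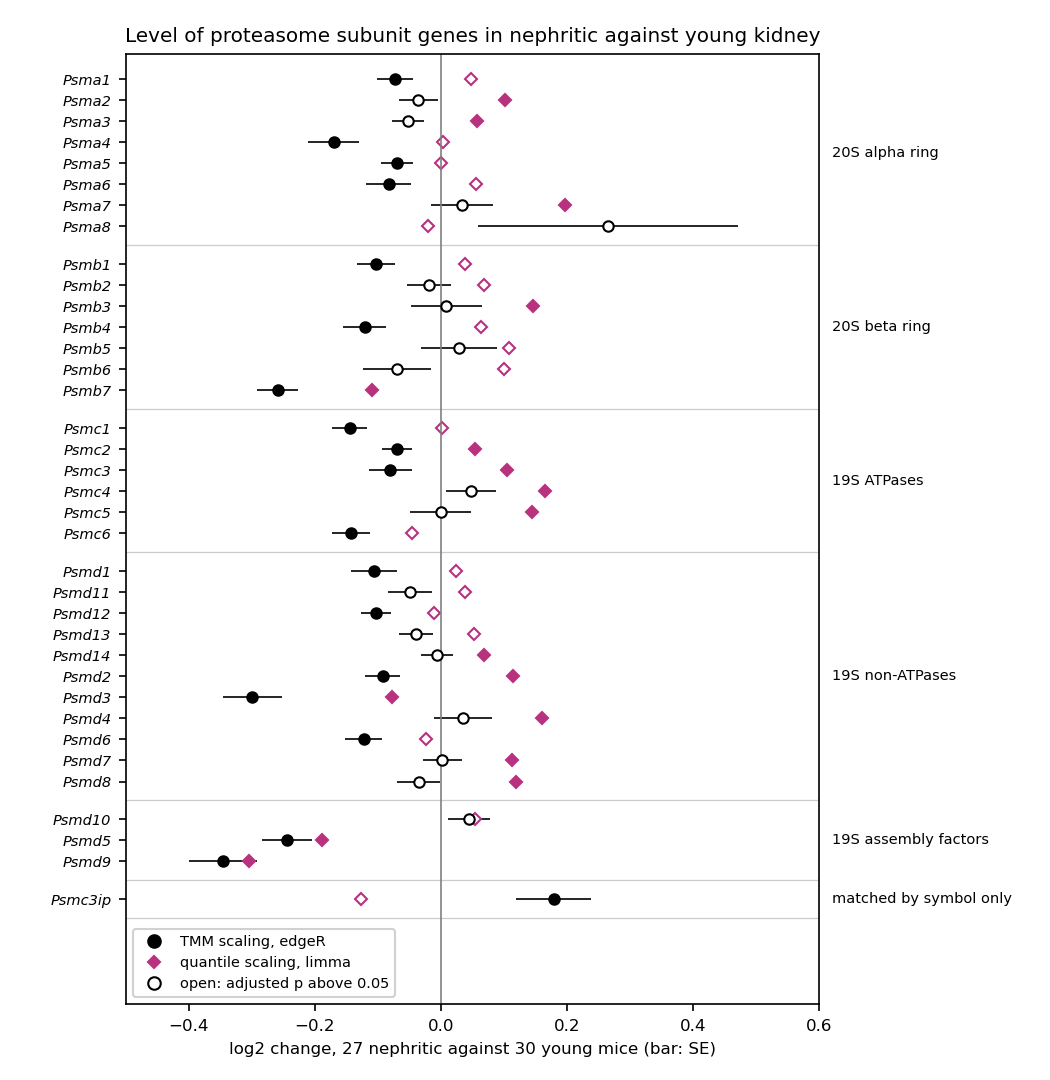
Log2 change of each member in 27 nephritic against 30 young mice with TMM scaling (black circles, bar: SE) and with quantile scaling (diamonds), grouped by role, with open symbols for an adjusted p above 0.05. Most members move from just left of 0 to just right of it with quantile scaling, whereas Psmd9 (-0.35), Psmd3 (-0.30), Psmb7 (-0.26) and Psmd5 (-0.24) stay to the left.

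Psmd9, a chaperone that holds ATPases of the regulatory particle during assembly, fell most. Its level ran from 37.3 to 59.6 CPM in young mice, with a median of 51.3, and from 28.2 to 54.9 CPM in nephritic mice, with a median of 40.4. The groups overlapped, but 8 of 27 nephritic mice lay below the lowest young mouse and none above the highest. The means were 51.5 ± 5.62 (SD, n = 30) and 41.4 ± 7.17 CPM (SD, n = 27), a log2 change of -0.35 (SE 0.054, adjusted p = 2.5e-07). Psmd5, which caps another ATPase pair until the particle is complete, ran from 44.3 to 63.2 CPM (median 52.2) in young and from 31.3 to 51.5 CPM (median 46.4) in nephritic mice, with 10 nephritic mice below every young mouse. Its log2 change was -0.24 (SE 0.039, adjusted p = 4.5e-07). The third assembly factor, Psmd10, also known as gankyrin, did not pass the test (0.04, SE 0.033).

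Psmd3 and Psmb7 were the subunits with the largest falls. Psmd3, a non-ATPase of the lid, had 252 to 403 CPM in young mice, with a median of 302, and 174 to 350 CPM in nephritic mice, with a median of 254. Of the 27 nephritic mice, 12 lay below the lowest young mouse. The log2 change was -0.30 (SE 0.047, adjusted p = 2.5e-07), and -0.08 with quantile scaling. Psmb7, the trypsin-like catalytic subunit, ran from 131 to 178 CPM (median 151) in young and from 103 to 153 CPM (median 130.2) in nephritic mice, and 14 of 27 nephritic mice were below all young mice. Its log2 change was -0.26 (SE 0.033, adjusted p = 1.7e-09). Of the exons of Psmb7, 405 of 1160 bases lie opposite exons of Nek6, and the strand used in counting is not given in the sources used here, so part of its count could come from Nek6.

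The falls also appeared within the family, where scaling between libraries cancels. Each gene was divided by the mean of the other subunits in the same library, and the log2 ratio of nephritic minus young mice was -0.29 for Psmd9, -0.23 for Psmd3, -0.19 for Psmb7 and -0.18 for Psmd5. For Psmb7 this ratio was 0.51 ± 0.056 (SD, n = 30) in young and 0.32 ± 0.15 (SD, n = 27) in nephritic mice. The nephritic mice were thus lower on average and also spread more widely.

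The other catalytic subunits did not pass the test. Psmb5, the chymotrypsin-like subunit, had 36.9 to 72.7 CPM (median 57.7) in young and 38.8 to 79.9 CPM (median 60.6) in nephritic mice, a log2 change of 0.03 (SE 0.060, adjusted p = 0.69). Psmb6 had 108 to 214 CPM (median 166) and 106 to 203 CPM (median 155), a log2 change of -0.07 (SE 0.054, adjusted p = 0.26). The ranges of both genes coincided almost wholly between the groups, and both values moved to 0.11 and 0.10 with quantile scaling, without passing the test. In 2 of the 11 alternatives Psmb6 was called lower, at -0.14 in set 2 alone, a subset of the sequencing (adjusted p = 0.018), and at -0.16 with the ribosomal covariate (adjusted p = 1.4e-06). With that covariate Psmb5 was called lower as well (-0.07, adjusted p = 0.042). The nearly fixed members at the other end were Psmc5, an ATPase (-0.0006, SE 0.048), Psmd7, the inactive partner of the deubiquitinase (0.002, SE 0.031), and Psmd14, the deubiquitinase that strips ubiquitin from the substrate (-0.006, SE 0.025), none of which passed, although all 3 passed as higher with quantile scaling (0.14, 0.11 and 0.07).

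By role, 4 of 8 alpha ring genes, 3 of 7 beta ring genes, 4 of 6 ATPases, 5 of 11 non-ATPases and 2 of 3 assembly factors were called lower, where 33.9% of all genes were, and none of them higher. With quantile scaling only Psmd9, Psmd3, Psmb7 and Psmd5 were still called lower. Psmc2, Psmc3 and Psmd2, called lower here (-0.07, -0.08 and -0.09), were called higher with quantile scaling (0.05, 0.10 and 0.11). Psma4, of the alpha ring, had a log2 change of -0.17 (SE 0.041, adjusted p = 0.0003), Psmc1, whose tail helps open the gate, -0.15 (SE 0.028, adjusted p = 1.5e-05), and Psmc6, another ATPase, -0.14 (SE 0.030, adjusted p = 5.1e-05). With quantile scaling the 3 values were 0.003, 0.002 and -0.05 and none passed. Psmd1 (-0.11, adjusted p = 0.0103) and Psma1 (-0.07, adjusted p = 0.024) likewise turned to 0.02 and 0.05. Leaving out 1 mouse at a time, Psmd1 lost its call in 22 of 57 fits and Psma1 in 35 of 57. Psmc3ip rose from a mean of 3.64 ± 0.454 CPM in 30 young mice to 4.23 ± 0.775 CPM in 27 nephritic mice (0.18, SE 0.060, adjusted p = 0.0080), but was at -0.13 with quantile scaling.

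The interferon-inducible counterparts moved far more. Psmb8 was at 12.4 to 22 CPM (median 15.4) in young and 23.2 to 222 CPM (median 48.6) in nephritic mice, so that every nephritic mouse was above every young mouse. Its log2 change was 1.83 (SE 0.14, adjusted p = 5.9e-17), with 1.63 (SE 0.13) for Psmb9 and 1.02 (SE 0.12) for Psmb10, all 3 higher in all 11 alternatives. The ratio of Psmb8 to Psmb5 counts had a median of 0.282 in young, 1.01 in nephritic and 0.773 in remission mice. For Psmb9 to Psmb6 the medians were 0.0429, 0.144 and 0.130, and for Psmb10 to Psmb7 they were 0.147, 0.309 and 0.267. The log2 differences between nephritic and young mice were 1.70, 1.62 and 1.22, each with a two-sided permutation p of 1e-05 within time point and sequencing set over 100000 resamples (adjusted p = 1e-05 over the 3 ratios), the smallest they can give. The leukocyte markers given above were higher in the same group, and their part in the ratios was not tested.

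Partners of the proteasome outside the family were followed as fixed lists, in a comparison where 33.9% of all genes were called lower and 28.1% higher. Of 5 activator and inhibitor genes, Psme1 and Psme2, which form the interferon-inducible cap, were higher (0.46 each, SE 0.078 and 0.064), Psme4, a nuclear activator, was lower (-0.36, SE 0.048), Psmf1, an inhibitor, was lower (-0.13, SE 0.021), and Psme3 was not called. All 4 calls held in all 11 alternatives. Of 5 core assembly chaperones, Psmg1 (-0.27) and Psmg2 (-0.15), which pair to start the alpha ring, were lower and Psmg4 was higher (0.17). Of 12 proteasome-bound genes, 5 were lower, among them the ubiquitin ligase Ube3c (-0.27), and none was higher.

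Among 10 genes of NRF1 and NRF2 control, 5 were lower and 2 higher, beside 33.9% and 28.1% of all genes. Nfe2l1 itself was at -0.08 (adjusted p = 0.016) and turned to 0.15 with quantile scaling, while its activating enzymes Ngly1 and Ddi2 were lower (-0.35 and -0.47). Nfe2l2, the gene of NRF2, was higher (0.11). The Maf partners split, with Maff higher (1.53), Mafg lower (-0.21) and Mafk not called (-0.03). The 6 NRF2 targets split, with Hmox1 (1.29) and Srxn1 (0.21) higher, Gclc (-0.40), Nqo1 (-0.27) and Gclm (-0.27) lower, and Txnrd1 not called. Of 6 ubiquitin genes, the polyubiquitin gene Ubb was higher (0.25) and those lower included the activating enzyme Uba1 (-0.12) and the segregase Vcp (-0.14), both of which turned positive with quantile scaling. Of the 3 clock control genes, Dbp was lower (-0.57) and Arntl and Per2 did not pass the test of level.

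The next comparison followed the genes over the day in each group. In young mice 15 of 36 members passed the test over the 6 times (41.7%, against 39.8% of 16521 genes), and in nephritic mice 8 did (22.2%, against 21.6% of 16872 genes), shares close to those of all genes in both groups. Without the young ZT4 mouse of replicate 4 the young count was 9. The nephritic count ran from 1 to 9 without 1 mouse, the 1 being without ZT8 replicate 1 or 4, and was 0 without the sequencing set as a covariate or with a cosine. The young list held 8 of the 11 non-ATPases, 3 of the 6 ATPases and 2 each of the alpha and beta ring genes. The 4 members past both tests were Psmb6, Psmd1, Psmd11 and Psmd3, which is 26.7% of the young list and 50% of the nephritic one, where over all genes the 1987 shared were 30.2% and 54.5%. The nephritic call of Psmd3 was lost in 19 of 27 fits that left out 1 mouse. Swings were small, with a median cosine amplitude of 0.07 on the log2 scale in young mice against 0.13 over all genes, and 0.05 against 0.12 in nephritic mice.

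Psmd11 stood apart from the other subunits in its day course. In young mice it was at 47.7, 50.1, 52.5 and 54.0 CPM at ZT8, at 68.4, 71.7, 72.5 and 74.4 CPM at ZT16 and at 75.9, 77.1, 83.1 and 83.7 CPM at ZT20, and at ZT0 the 7 mice ran from 70.0 to 87.6 CPM with a median of 81.2. The lowest mouse at ZT20 or ZT0 was above the highest mouse at ZT8, with no overlap. Its amplitude was 0.30 on the log2 scale (SE 0.023, adjusted p = 4.8e-09), and it passed in all 11 alternatives and without any 1 mouse.

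In nephritic mice Psmd11 kept a trough at ZT8 (53.4, 53.7, 54.0 and 63.3 CPM) and was at 68.8, 70.9 and 76.5 CPM at ZT20. All ZT20 mice were again above all ZT8 mice. The amplitude was 0.15 (SE 0.038, adjusted p = 0.0098), smaller than in young mice, but the difference in day course between the groups did not pass its own test (adjusted p = 0.14). The mean level over the day did not pass either (-0.05, SE 0.035, adjusted p = 0.22).

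Only some of the young members shared the Psmd11 phase. Psmd1 and Psmd12 had their young maximum at ZT20 and minimum at ZT8, with amplitudes of 0.11 (SE 0.024, adjusted p = 0.0021) and 0.08 (SE 0.021, adjusted p = 0.023), and Psmd14 was highest at ZT16 and lowest at ZT8 (0.08, SE 0.025, adjusted p = 0.00066). Psmd1 had 96.8 to 103 CPM at ZT8 and 112 to 132 CPM at ZT20 in 4 young mice each, with no overlap. Most other members, called or not, were highest at ZT4: this held for 28 of 35 genes without Psma8 (80%), where 20.5% of 16521 genes peaked at that time. Of the 15 members past the test, 11 peaked at ZT4, as did 1318 of the 6583 genes past it. Members varied together from mouse to mouse, so these counts are not of independent genes. Among the 11 were Psmd3 (amplitude 0.15, SE 0.030, adjusted p = 0.0036), Psmb6 (0.12, SE 0.046, adjusted p = 0.038), Psmc5 (0.10, SE 0.034, adjusted p = 0.0069) and Psmd2, which docks shuttle receptors (0.10, SE 0.020, adjusted p = 0.0097). Psma7, of the alpha ring, had an amplitude of 0.12 (SE 0.040) and did not pass (adjusted p = 0.21).

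**Figure D2:**
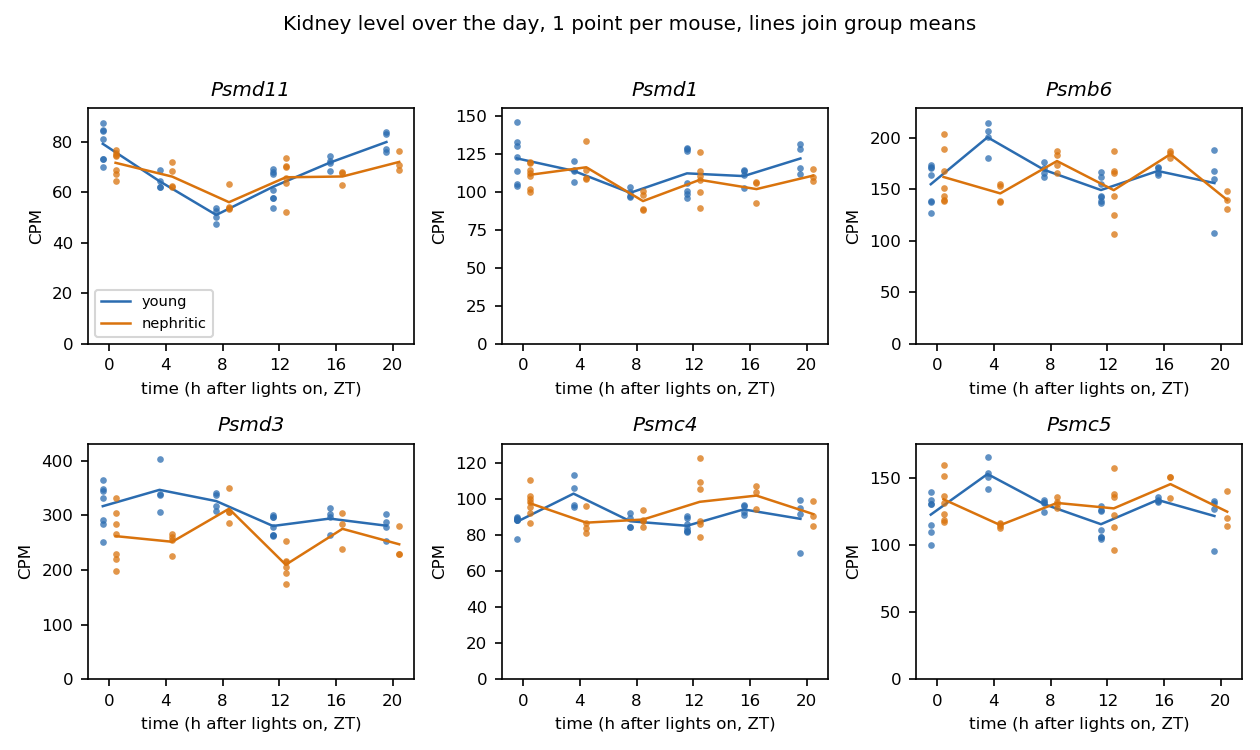
Level in CPM of 6 members at each time of day in young (blue) and nephritic (orange) mice, with 1 point per mouse and lines joining group means. Psmd11 dips at ZT8 in both groups, and Psmb6, Psmd3, Psmc4 and Psmc5 are high at ZT4 in young mice and not in nephritic mice.

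In nephritic mice 4 of the 35 genes, called or not, peaked at ZT4 (11.4%, against 14.7% of all genes), while 13 peaked at ZT8 (37.1% against 22.8%), 9 at ZT0 (25.7% against 12.6%) and 8 at ZT16 (22.9% against 20.5%). Of the 8 members past the nephritic test, 0 peaked at ZT4, 3 at ZT8, 2 at ZT0 and 3 at ZT16. Of the 3646 genes past it, 271, 958, 420 and 788 peaked at these times. The amplitude was lower than in young mice for 24 of 35 genes (68.6%, against 57.3% of all genes), with a median ratio of 0.664, against 0.860 over all genes. For 2 members, both ATPases, the day course differed between the groups: Psmc5 (adjusted p = 0.032) and Psmc4 (adjusted p = 0.036), which is 5.56% of members against 6.27% of all genes. At ZT4 Psmc5 was at 142, 151, 154 and 165 CPM in young and 113, 114, 116 and 116 CPM in nephritic mice, and at ZT16 at 132, 133, 133 and 136 CPM in young and 135, 151 and 151 CPM in nephritic mice. The order of the groups thus turned from ZT4, where they did not overlap, to ZT16, where they overlapped by 1 mouse each. Psmc4 was at 95.9, 96.6, 106 and 114 CPM in young and 81.3, 83.8, 86.5 and 96.3 CPM in nephritic mice at ZT4. Psmc4 overlapped by 1 mouse. Neither gene passed with quantile scaling, with a cosine in place of time points, or with the 2 near-alike ZT4 mice summed.

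With TMM scaling the ZT4 difference was spread over much of the family. Compared at each time, 18 members were lower in nephritic mice at ZT4 (50%, against 30.3% of all genes in either direction and 16.4% lower), and none was higher. All but 1 of the 36 members had a log2 change below 0, and the median was -0.26 against -0.03 over all genes. The members that passed lay in every subcomplex, but with quantile scaling only Psmd9 still passed. The members' median was then -0.063, against -0.057 over all genes. Members varied together from mouse to mouse, so their shared direction is not a count of independent genes. The other times gave 5 members at ZT0, all lower (39.5% of all genes, 19.4% lower), 11 at ZT12 (50% of all genes), of which 9 were lower (24.2%) and 2 higher (25.8%), and 2 at ZT16 (17.7%). At ZT8 and ZT20 edgeR called 0 members (3.66% and 5.48% of all genes), and 0 members at ZT8 and 9 at ZT20 had an unadjusted p under 0.05. Limma with quantile scaling also called 0 at both times.

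At ZT4 Psmd9 was at 55.8, 55.9, 56.1 and 59.3 CPM in the 4 young and at 34.9, 39.5, 39.9 and 40.4 CPM in the 4 nephritic mice. The gap between the groups was wider than the spread within either, and the log2 change was -0.62 (SE 0.13, adjusted p = 0.00047). Psmd3 was at 307, 338, 339 and 403 CPM against 226, 254, 261 and 266 CPM, also without overlap (-0.53, SE 0.12, adjusted p = 0.00057). Psmb6 was at 181, 201, 207 and 214 CPM against 137, 139, 154 and 155 CPM (-0.53, SE 0.13, adjusted p = 0.0019). In all, 14 members had every nephritic mouse below every young mouse at ZT4 (19.4% of all genes did so), and 1 had every one above (24.4%). At ZT16, with 4 young and 3 nephritic mice, 7 members had every nephritic mouse lower (15.1% of all genes) and 6 had every one higher (19.1%). Every nephritic mouse was also lower in Psmd3 and Psmd9 at ZT12 (7.2% of all genes), in Psmd5 at ZT0 (1.83%) and in Psmc6 at ZT20 (8.06%), and 2 members were higher in every one at ZT8 (7.71%).

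**Figure D3:**
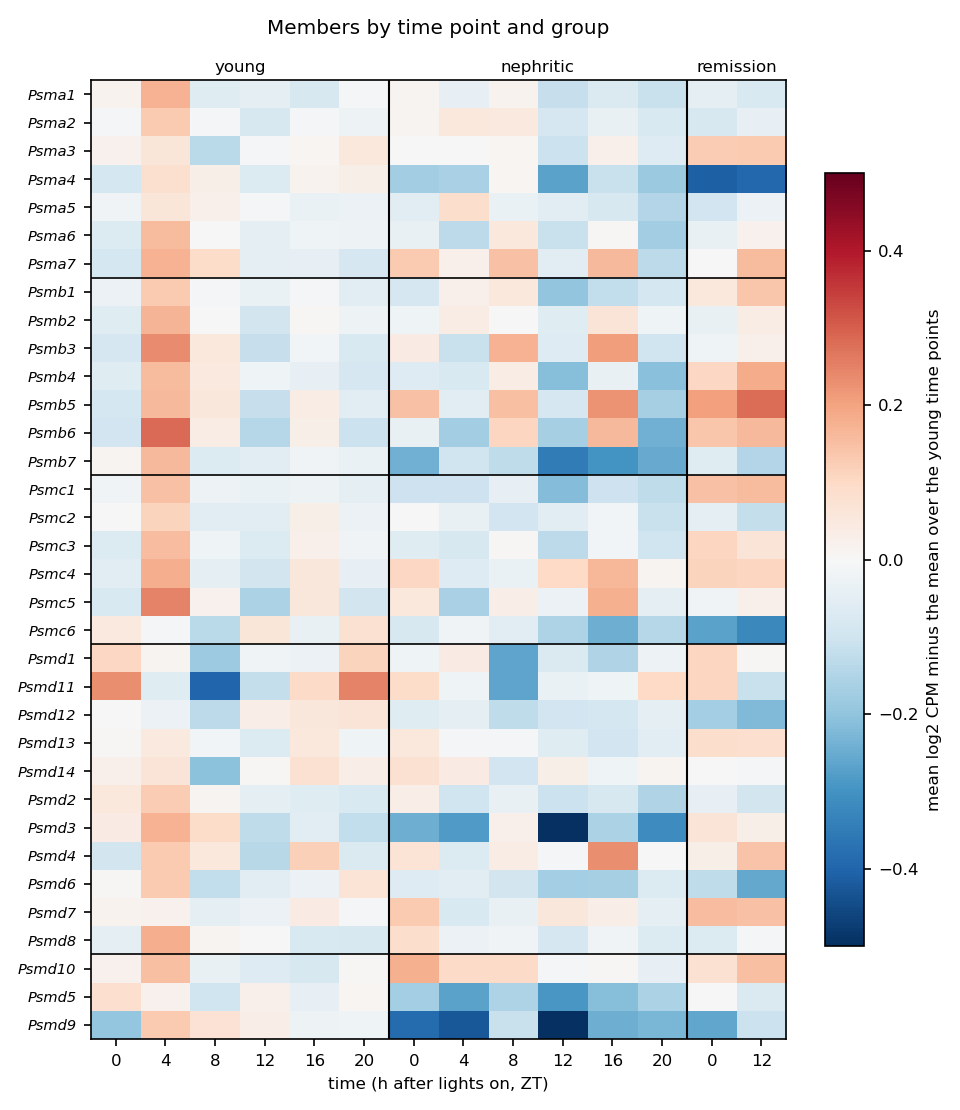
Mean log2 CPM of 34 members (rows, by role) at each time of day (columns) in young, nephritic and remission mice, minus the mean of the young time points, where red is higher, blue lower, and values past the scale take the end color. Young mice are reddest at ZT4 in most rows, nephritic mice are blue in Psmd3, Psmd5, Psmd9 and Psmb7 at most times, and Psma4 and Psmc6 are blue in remission mice.

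The young ZT4 mice were also high in other housekeeping genes, whose part in the ZT4 difference was not tested. Relative to the young mean, the core subunits averaged 0.16 ± 0.074 (SD, n = 4) on the log2 scale in young ZT4 mice and -0.03 ± 0.068 (SD, n = 4) in nephritic ZT4 mice. For 79 ribosomal protein genes the values were 0.21 ± 0.042 and -0.04 ± 0.080, and for 36 genes of respiratory complex I they were 0.19 ± 0.094 and -0.31 ± 0.11. With the ribosomal mean as a covariate 16 members were called at ZT4 and the members' median log2 change shrank from -0.26 to -0.15, against -0.04 over all genes. With mice RX12LU and RX11RL summed 17 members were called.

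Most core subunits moved together from mouse to mouse. After the group, time and set means were removed, the median correlation between genes over 57 libraries was 0.75 within the beta ring, 0.59 within the alpha ring, 0.58 within the ATPases and 0.28 within the non-ATPases, against -0.003 over all gene pairs. The points are libraries, which share depth and RNA quality across genes. The core mean had a correlation of 0.86 with the ribosomal mean (0.92 in 30 young and 0.80 in 27 nephritic mice), and the mean of the regulatory subunits one of 0.54. With complex I the core correlation was 0.96 in young and 0.55 in nephritic mice. Psmd1, Psmd11 and Psmc6 ran the other way from the core (-0.38, -0.27 and -0.21) and from the ribosomal mean (-0.65, -0.50 and -0.54). Several members followed complex I more than the core, among them Psmd9 (0.79 against 0.41), Psmb7 (0.82 against 0.46) and Psmd3 (0.78 against 0.46). Within the core itself, Psma5 (0.30) and Psmb7 followed the mean of the other core subunits least, apart from the barely detected Psma8.

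**Figure D4:**
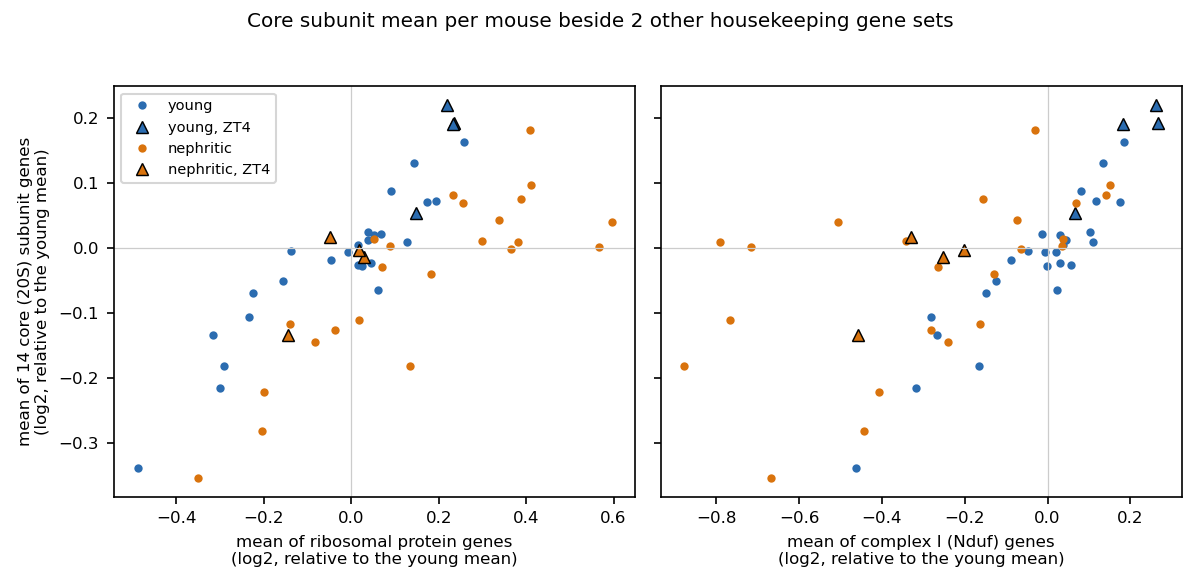
Mean of 14 core subunit genes in each young (blue) and nephritic (orange) mouse against the mean of 79 ribosomal protein genes (left) and 36 complex I genes (right), on the log2 scale relative to the young mean, with ZT4 mice as triangles. The core mean rises with both sets in young mice, and at ZT4 the nephritic mice (-0.03 on average) lie below the young mice (0.16).

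Within the 27 nephritic mice, levels were set against kidney injury, measured by Lcn2, a gene of damaged tubules whose level ran from 2.28 to 9.45 on the log2 CPM scale. Slopes passed for 12 members (33.3%, against 48.5% of all genes), 5 rising with Lcn2 (24.6% of all genes) and 7 falling (23.9%), and with quantile scaling 9 rose and 3 fell. Of the 18 members lower in nephritic mice, 7 had a falling slope, Psma5 had a rising one and 10 did not pass. The 4 genes lower in all alternatives were among the 7, with Psmd9 falling by 0.094 per doubling of Lcn2 (SE 0.014, adjusted p = 6.1e-06), Psmd3 by 0.080 (SE 0.011, adjusted p = 4.3e-06), Psmb7 by 0.047 (SE 0.012, adjusted p = 0.0022) and Psmd5 by 0.044 (SE 0.015, adjusted p = 0.018). Rising slopes were found for Psmc3ip (0.07, SE 0.020, adjusted p = 0.0047), Psma5, of the alpha ring (0.03, SE 0.0087, adjusted p = 0.0037), and Psmd8, of the lid (0.03, SE 0.011, adjusted p = 0.026). The slopes of Psma5, Psmd3, Psmd5, Psmd8 and Psmd9 passed with the same sign in all 10 alternatives, and those of Psmb7 and Psmc3ip in 9 of them. Psma8 had a slope of 0.05 (SE 0.064) and did not pass.

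The last comparisons asked where mice in remission stood. Against nephritic mice at ZT0 and ZT12, 11 members passed (30.6%, against 37.5% of 16841 genes), 10 higher (17% of all genes) and 1 lower (20.5%), with quantile scaling 9 did, 6 higher and 3 lower, and without s9 there were 8, all higher. Psmd3 was at 301, 317, 329 and 334 CPM at ZT0 and 294, 300.3, 321 and 336 CPM at ZT12 in remission mice. At the same times the 13 nephritic mice ran from 174 to 332 CPM (median 221) and the 14 young mice from 252 to 365 CPM. The remission mice thus lay in the upper part of the nephritic range or above it, and inside the young range. The log2 change from nephritic mice was 0.38 (SE 0.086, adjusted p = 0.00072), and that from young mice was 0.04 (SE 0.085, adjusted p = 0.72).

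Psmb4, of the beta ring, was also higher in remission than in nephritic mice in all 11 alternatives, as was Psmd3, and Psmc1 was in 10 of them. Psmb4 had 186 to 225 CPM (median 205) in 8 remission mice and 137 to 203 CPM (median 167) in the 13 nephritic mice of ZT0 and ZT12, a log2 change of 0.31 (SE 0.063, adjusted p = 0.00022). Psmc1 had 142 to 167 CPM (median 158) and 109 to 147 CPM (median 123), a log2 change of 0.31 (SE 0.052, adjusted p = 1.9e-05). The groups overlapped in both genes, but the median remission mouse was above every nephritic mouse. Psmb1, another beta ring gene, was higher by 0.26 (SE 0.054, adjusted p = 0.00042), Psmb6 by 0.26 (SE 0.091, adjusted p = 0.026) and Psmb7 by 0.20 (SE 0.066, adjusted p = 0.016), while Psmd9 did not pass (0.23, SE 0.11, adjusted p = 0.087).

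**Figure D5:**
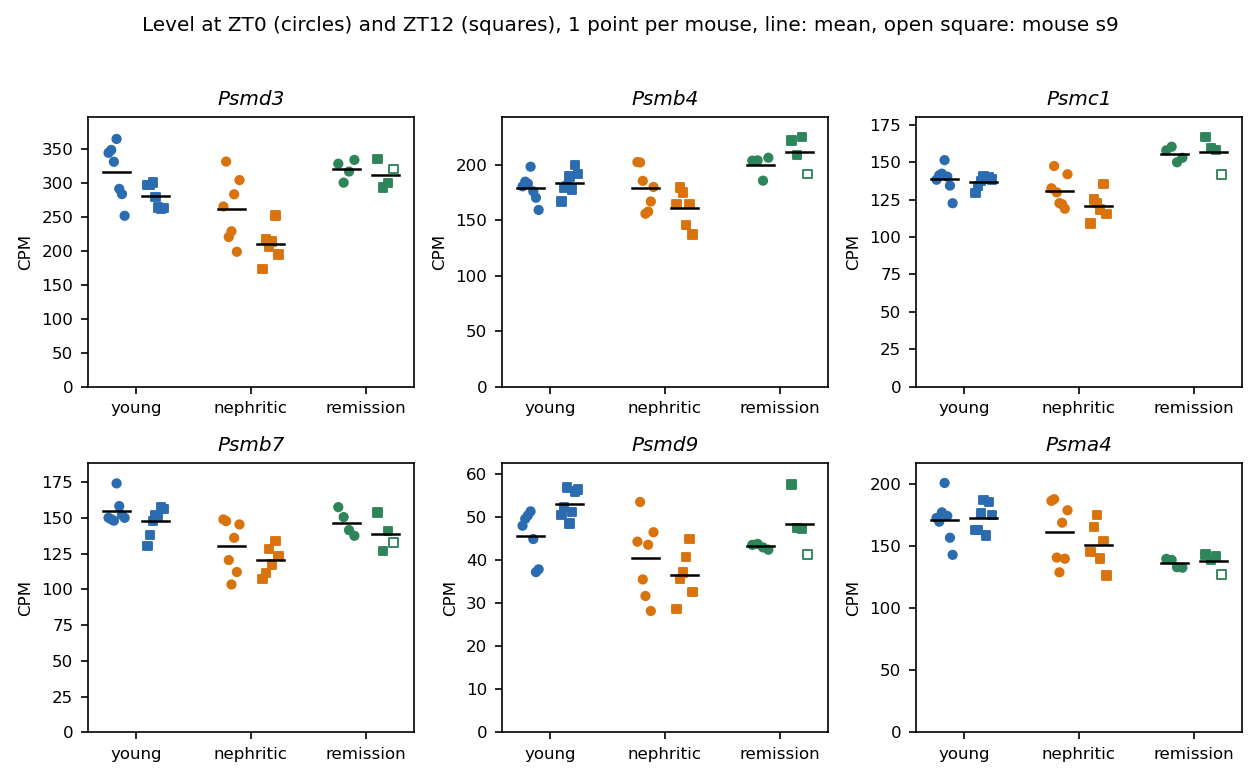
Level in CPM of 6 members at ZT0 (circles) and ZT12 (squares) in young, nephritic and remission mice, with 1 point per mouse, a line at each mean and mouse s9 as an open square. Remission mice lie above most nephritic mice in Psmd3, Psmb4 and Psmc1 and low in Psma4 (127 to 143 CPM).

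Against young mice 16 members differed (44.4%, against 41.6% of all genes), 12 higher (21.2% of all genes) and 4 lower (20.4%), and 15 did without s9. Psma4 was the 1 member past the test in all 11 alternatives, with 132, 133, 139 and 139.5 CPM at ZT0 and 127, 138, 141 and 143 CPM at ZT12 in remission mice, where the 14 young mice of these times had 143 to 201 CPM. Of the 8 remission mice, 7 lay below every one of them, and the log2 change was -0.32 (SE 0.074, adjusted p = 0.00082). Psmc6 was lower by -0.28 (SE 0.060, adjusted p = 0.00037) and Psmd12 by -0.18 (SE 0.051, adjusted p = 0.0052), and Psmb5 was higher by 0.35 (SE 0.105, adjusted p = 0.0087).

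The sequencing run moved with several of these values. Of 4 young or nephritic mice that were also sequenced with the remission mice, nephritic ZT12 mouse RX11RU had a repeat library far from its own first library (21.1 times counting noise) and closest to that of ZT4 mouse RX11LU (3.67 times). For the other 3, the level relative to the other subunits changed from the first library by -0.21 for Psmc6 and -0.15 for Psmd12, lower in all 3, and by 0.18 for Psmb5, 0.16 for Psmc1, 0.06 for Psmb4, 0.05 for Psmd3 and -0.03 for Psma4. For RX11RU the same 7 values were -0.44, -0.21, 0.59, 0.12, 0.12, 0.35 and 0.15. With the run as a covariate, bridged by the repeat libraries, 3 members differed from young mice in place of 16, 2 higher and 1 lower, with or without that of RX11RU. The share of all genes fell as well, from 41.6% to 18.2% with it and 23% without it. From nephritic mice 8 members differed with it, all higher (23.5% of all genes, in place of 37.5%). Without it 7 did, 6 higher and 1 lower (25.4% of all genes), and Psmc1 did not pass. Psmb8 of the immunoproteasome had 20.9 to 115 CPM (median 54.2) in remission mice, a log2 change of 0.03 from nephritic mice (SE 0.30, adjusted p = 0.95) and 2.09 from young mice (SE 0.28, adjusted p = 5.0e-07). Between ZT0 and ZT12 in remission mice edgeR called 0 of 35 members and 0 of 14451 genes, with 1 member and 1449 genes at an unadjusted p under 0.05, limma called 0 genes and DESeq2 called 0.166% of genes and 0 members. Without s9 the count of members stayed at 0, while edgeR called 1.41% of all genes.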

How the data were processed

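Kidney RNA was sequenced at 150 bp, paired-end per the labels (the paper gives both paired and single ends), in 65 original libraries, 1 per mouse, and 4 repeat libraries. The authors deposited raw counts of reads for each gene symbol, as whole numbers. The paper names Burrows-Wheeler alignment and the submitters' processing notes name HISAT and mm10, and strand and counter are not given in the sources used here. Each library listed 24538 symbols, and 15 with empty cells were left out. Groups and times came from the labels and sets from the titles and the study's sample table. The members and lists were chosen with earlier results of these data known.

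Counts were tested in R 4.3.3 with edgeR 4.0.16 (quasi-likelihood F test, TMM scaling, genes with at least 100 counts over the libraries of a fit, sequencing set as a covariate, Benjamini-Hochberg adjustment over all genes, adjusted p at most 0.05). Level was the group term with time point. The day course was the 6 time points, and its difference was the group by time terms. Remission was compared at ZT0 and ZT12. CPM used TMM library sizes, and amplitudes were fitted without a test to log2 CPM (prior count of 2) with cosine and sine terms of 24 h. Total counts per library of 13311278 to 48075977 set the precision of low genes such as Psma8. P-values measure the spread between mice. Scripts were tested on simulated data. Full values were given for the catalytic subunits, Psmd1 and Psma1, the members with the 5 largest and 3 smallest level changes, those whose day course differed, and the 5 largest amplitudes, injury slopes and remission changes.

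Alternatives were RLE factors, DESeq2 1.42.0, limma 3.58.1, quantile scaling, no filter, 1 set alone, no set covariate, a cosine, repeat libraries, a run covariate, Havcr1 in place of Lcn2, fewer young mice to match the nephritic group, remission without s9, the 2 compared groups alone, and leaving out each mouse. A ribosomal covariate, ZT0 and ZT12 alone, leaving out the repeat library of RX11RU, summing RX12LU with RX11RL and quantile scaling beyond the level comparison were chosen after seeing the data.

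Gene positions and transcript lengths came from GENCODE M21 on GRCm38. Promoters were matched by symbol in RefSeq (29 of 36). Genes with pseudogenes or overlapping neighbors (Psmb5, Psmb6, Psmb7, Psma4, Psma5, Psmc3, Psmc3ip, Psmd1, Psmd3, Psmd13) are uncertain where reads could be shared. Some genes of the fixed lists were counted with their list but are not reported here by name.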

Additional observations from a re-analysis of the deposited data

Results flagged for a closer look

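The day course of 2 ATPase genes differed between young and nephritic mice by the test of the difference itself, Psmc5 with an adjusted p of 0.0317 and Psmc4 with an adjusted p of 0.0356 (edgeR).

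In 228 combinations of a gene and a group of 4 to 7 mice, 13 had 1 mouse far from the others, where chance gives about 11.4 at 1 in 20. Mice of the young group accounted for 8 of these. At ZT4 Psmd9 was highest in mouse ZT4RL (59.3 CPM), at ZT8 Psma7 was highest in ZT8RL (165.3 CPM), and at ZT0 Psmb7 was highest in ZT00 (174 CPM) and Psmc4 lowest in CR6LL (77.8 CPM). At ZT16 Psmc1 was lowest in ZT16RU (134 CPM) and Psmd7 lowest in ZT16LU (84.2 CPM). At ZT20 mouse ZT20LU was lowest in both Psmc5 (95.5 CPM) and Psmd14 (52.0 CPM).

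Among nephritic mice, RX1OLL at ZT4 was highest in Psma1 (101 CPM) and lowest in Psmd9 (34.9 CPM), RX11LU at ZT4 was lowest in Psmb1 (115 CPM), and RX10RU at ZT8 was highest in Psmd11 (63.3 CPM). Without RX10RU the other 3 nephritic ZT8 mice had 53.4 to 54.0 CPM of Psmd11. The remission ZT0 mouse s4 was lowest in Psmb4 (186 CPM).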

How the results depend on the processing

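Of the members called, those past the test with the same direction in every alternative, apart from leaving out mice, were Psmb7, Psmd3, Psmd5 and Psmd9 for level, Psma1, Psmc5, Psmd11, Psmd14, Psmd2, Psmd3 and Psmd8 for the young day course, Psmb4 and Psmd3 for remission against nephritic, and Psma4 for remission against young mice. For level, 8 members were called with ZT0 and ZT12 alone and 30 with the ribosomal covariate. With quantile scaling Psmc2 (0.0545), Psmc3 (0.104) and Psmd2 (0.114) turned from a lower to a higher call, and Psmd1 (0.0233), Psma1 (0.0478), Psmc5 (0.144) and Psmd14 (0.0682) turned positive, and Psmb5 was at -0.0682 with the ribosomal covariate. The nephritic day course count was 4 without the filter, 0 without the set covariate, 0 with a cosine, 4 with repeat libraries (8 without that of RX11RU), 1 with the ribosomal covariate and 4 with the near-alike mice summed. The difference in day course gave 1 member without the filter and 0 with a cosine, quantile scaling, the ribosomal covariate or the summed mice. At ZT0 the counts were 3 without the filter, 10 with quantile scaling and 8 with the ribosomal covariate, and at ZT4 1 with quantile scaling. At ZT12 they were 6 in set 2 alone and 19 with the ribosomal covariate. At ZT16 they were 1 with RLE factors, without the filter or without the set covariate, and 0 with quantile scaling, and at ZT20 1 in set 2 alone or with the ribosomal covariate. Remission against nephritic mice gave 7 members with the run covariate bridged without RX11RU (25.4% of all genes). Remission against young mice gave 3 with the bridged run covariate, with or without RX11RU (18.2% and 23% of all genes). It gave 6 with the ribosomal covariate (37.9% of all genes). The cause of these changes was not tested.

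Leaving out each mouse in turn gave 13 to 20 members for level, 9 to 21 for the young day course, 1 to 9 for the nephritic one and 0 to 4 for their difference. It gave 2 to 10 at ZT0, 12 to 18 at ZT4, 0 at ZT8, 8 to 12 at ZT12, 0 to 2 at ZT16 and 0 to 1 at ZT20. It gave 7 to 11 for remission against nephritic, 12 to 17 against young mice, 0 for ZT0 against ZT12 and 9 to 13 for the injury slope. The counts moved by over 1.5 times without 1 of 15 nephritic mice for the nephritic day course (1 without ZT8 replicate 1 or 4), 1 of 21 mice for the difference (0 without young ZT4 replicate 1, among others), 1 of 9 at ZT0 (2 without nephritic ZT0 replicate 6), 1 of 38 at ZT16, 1 of 2 at ZT20 and the remission ZT12 mouse of replicate 1 (7). No paired analysis was possible because the labels carry no replicate numbers. Depth limits Psma8 and Psmc3ip most.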
